A study of Mus musculus with 15 samples.

Results

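Chemokine ligands are small secreted proteins that direct the migration of leukocytes. The 10 ligand genes described here were chosen by symbol from the deposited gene tables: Ccl2, Ccl3, Ccl4, Ccl6, Ccl7, Ccl9, Ccl12, Cxcl2, Cxcl10 and Cxcl16, out of 54390 listed genes. They were measured by bulk RNA-seq in 15 libraries of BV2, an immortalised mouse microglial cell line. The genes were chosen with earlier results of these data known, so their medians and shares beside those of all genes are descriptive. Groups were WT cells in media alone (WT non-foamy, n = 4), WT cells given 20 μg/ml soluble cholesterol overnight (WT foamy, n = 4), Trem2-/- cells in media alone (Trem2-/- non-foamy, n = 3) and Trem2-/- cells given the same cholesterol (Trem2-/- foamy, n = 4). Trem2 is a lipid-sensing receptor of macrophages and microglia. The methods describe cholesterol complexed with methyl-beta-cyclodextrin and do not state whether cells in media received cyclodextrin alone, so the effects of cholesterol and carrier cannot be told apart. Trem2-/- cells were made by CRISPR-Cas9 in a Cas9-expressing BV2 line and cloned by limiting dilution, so that genotype and clone cannot be told apart.

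Chemokines are grouped by the spacing of the first cysteines of the mature protein, adjacent in CC ligands and separated by another residue in CXC ligands. They act through G protein-coupled receptors on the target cell. Ccl2, Ccl7 and Ccl12 are monocyte chemoattractants that act through CCR2. Ccl3 and Ccl4, known as macrophage inflammatory proteins, attract monocytes and lymphocytes, and Ccl3 acts through CCR1. Ccl6 and Ccl9 are CC ligands of rodents that act through CCR1. Cxcl2 recruits neutrophils through CXCR2, Cxcl10 is an interferon-induced ligand of CXCR3, and Cxcl16 is a transmembrane ligand of CXCR6 that is released by ADAM10 and also binds oxidized lipoprotein. Macrophages and microglia are well-known sources of CC ligands, and recruitment of monocytes by chemokines is part of plaque growth in atherosclerosis.

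The class of a chemokine can be read from its coding sequence, and the stretches around the defining cysteine codons are shown with these codons in capitals. In the CC ligands the codons are adjacent, as shown for 6 of them.
Ccl2: ccactcaccTGCTGCtactcattc
Ccl7: gcatccacaTGCTGCtatgtcaag
Ccl12: ccagtcacgTGCTGTtataatgtt
Ccl4: cccacttccTGCTGTttctcttac
Ccl6: tcttcagacTGCTGCttctcttat
Ccl9: tcttcagatTGCTGCctgtcctat

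In the 3 CXC ligands a codon for another residue lies between them.
Cxcl2: gaactgcgcTGTcaaTGCctgaagacc
Cxcl10: acggtccgcTGCaacTGCatccatatc
Cxcl16: gctggaagtTGTtctTGTgatcgtacc

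These stretches were read 5′ to 3′ from GENCODE M21 transcripts of GRCm38. They begin at base 91 of the coding sequence of Ccl2 and Ccl4, base 88 of Ccl7 and Ccl12, base 139 of Ccl6, base 160 of Ccl9, base 97 of Cxcl2, base 79 of Cxcl10 and base 94 of Cxcl16. Over whole coding sequences, Ccl3 and Ccl4 were 70.1% identical, Ccl6 and Ccl9 66.7%, and Ccl7 and Ccl12 63.9%.

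Most members lie together on chromosome 11. In GRCm38, Ccl2 (chr11:82035571-82037453, plus strand), Ccl7 (chr11:82045712-82047525, plus) and Ccl12 (chr11:82101845-82103400, plus) form one stretch. Ccl9 (chr11:83572919-83578636, minus), Ccl6 (chr11:83587882-83593087, minus), Ccl3 (chr11:83647844-83649355, minus) and Ccl4 (chr11:83662584-83664683, plus) form another. Ccl9 and Ccl6 are 9246 bases apart and Ccl3 and Ccl4 are 13229 bases apart. Cxcl16 lies elsewhere on that chromosome (chr11:70453983-70459984, minus), and Cxcl2 (chr5:90903871-90905938, plus) and Cxcl10 (chr5:92346638-92348889, minus) lie on chromosome 5. All 10 are annotated as protein coding. No exon of a CC member overlapped an exon of another gene. Of the exonic bases of Cxcl16, 18.3% overlapped Zmynd15 on the other strand, and 5.91% of those of Cxcl10 overlapped Art3. The strand setting of the counting was not given in the sources used here, so reads from these overlaps cannot be assigned to 1 gene. Stretches of 50 bases shared with another gene made up 1.97% of Ccl9 and 5.84% of Cxcl2, the latter shared with Cxcl3, and none of Ccl2, Ccl3, Ccl4, Ccl6, Ccl7 or Ccl12.

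The deposited values are raw read counts per gene. Libraries held between 23538963 (WT non-foamy replicate 3) and 41683825 counts (WT non-foamy replicate 4). Levels are given as counts per 1000000 counts of the library (CPM) after TMM scaling, which corrects library sizes for differences in composition. Differences are log2 fold changes with the standard error (SE) from edgeR's quasi-likelihood fit of all 15 libraries, and a call means an adjusted p (Benjamini-Hochberg, over the 14237 tested genes) under 0.05. WT non-foamy replicate 3, WT foamy replicate 1 and Trem2-/- foamy replicate 4 stood apart from most libraries of their groups. A chi-square per gene of 31.2 to 40.2 separated WT non-foamy replicate 3 from the other WT non-foamy libraries, which differed from each other by 6.35 to 7.61. WT foamy replicate 1 differed by 19.2 to 45.4 from the other WT foamy libraries, which differed from each other by 8.39 to 15.7. For Trem2-/- foamy replicate 4 the values were 15.6 to 24.7, against 6.83 to 10.9 among the others of its group. In the comparisons that include them, leaving out 1 of these libraries changed no call of the 10 ligands except those of Ccl4 and, without Trem2-/- foamy replicate 4, of Ccl6 described below. Nothing in the labels says that libraries came from separate cultures, so p-values measure the spread between these libraries, which may be technical. In bulk RNA, fewer cells of a type and less RNA per cell cannot be told apart.

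Trem2 itself was measured first. It stood at 329, 345, 415 and 327 CPM in WT non-foamy replicates 1 to 4 and at 337, 372, 400 and 383 CPM in WT foamy libraries, against 232, 214 and 220 CPM in Trem2-/- non-foamy and 227, 227, 218 and 226 CPM in Trem2-/- foamy libraries. Every Trem2-/- library was below every WT library, although the transcript remained abundant. Expressed as log2 fold changes, Trem2-/- cells differed from WT cells in Trem2 by -0.67 when non-foamy (SE 0.08, edgeR adjusted p = 2.85e-07) and by -0.73 when foamy (SE 0.07, adjusted p = 7.09e-08). Trem2 was not called in the response to cholesterol of either genotype (adjusted p = 0.658 in WT and 0.989 in Trem2-/- cells).

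The identity of the cells was checked with markers. All 10 microglia and macrophage markers (Ptprc, Itgam, Adgre1, Csf1r, Aif1, Cd68, Spi1, Tyrobp, Fcgr3 and Lyz2) passed the filter on low counts. Their summed level ranged from 6851 to 8467 CPM in WT non-foamy, from 7320 to 8798 CPM in WT foamy, from 11957 to 12610 CPM in Trem2-/- non-foamy and from 11617 to 12824 CPM in Trem2-/- foamy libraries. The sum was therefore higher in every Trem2-/- library, and 8 of the 10 markers were higher in Trem2-/- cells both without and with cholesterol, beside 21% and 14.3% of all tested genes. With library totals alone, Csf1r and Ptprc lost the call in foamy cells, and Ptprc lost it also without the filter on low counts, with only the groups compared, and without WT foamy replicate 2 or Trem2-/- foamy replicate 4. Lyz2, which encodes lysozyme, was the most abundant, at 3252 and 6318 CPM in the WT and Trem2-/- non-foamy groups. None of the 10 markers passed the test in either response to cholesterol. Of the lymphocyte markers, Cd3g, Ncr1, Nkg7 and Ms4a1 had no count in any library. The T and NK cell list summed to 0.484 to 0.714 CPM in WT non-foamy, 0.709 to 1.26 CPM in WT foamy, 1.60 to 2.35 CPM in Trem2-/- non-foamy and 1.15 to 2.92 CPM in Trem2-/- foamy libraries, nearly all of it Cd4. Neutrophil, astrocyte, neuron, endothelial and fibroblast lists summed to at most 0.631 CPM in any library, and the oligodendrocyte list to at most 2.57 CPM. The part of the changed macrophage markers in the chemokine values was not tested.

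Of the 10 chemokine ligands, 6 had enough counts to be tested: Ccl2, Ccl3, Ccl4, Ccl6, Ccl9 and Cxcl16. Levels of different genes were compared per kilobase of exonic length. In WT non-foamy cells Ccl3 was highest, at 223 ± 13.3 CPM per kilobase (SD, n = 4), which placed it above 98.4% of the tested genes. Ccl4 followed at 45.4 ± 3.06, Ccl9 at 22.6 ± 1.62, Ccl6 at 8.71 ± 0.328, Ccl2 at 2.42 ± 0.409 and Cxcl16 at 0.146 ± 0.0296 CPM per kilobase. The same order held for the means of the other 3 groups. Neighbours in this order were close in Trem2-/- cells, where Ccl9 stood at 8.21 ± 0.564 and Ccl6 at 6.12 ± 0.519 CPM per kilobase without cholesterol (SD, n = 3), and Ccl4 at 18.9 ± 0.902 and Ccl9 at 14.5 ± 0.873 with cholesterol (SD, n = 4). In every group the distance between neighbouring means was larger than either SD.

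The other 4 members were at the limit of detection. Taking 3 counts as the floor, the lowest level that could be told from 0 was between 0.0669 and 0.132 CPM, depending on the library, which covers counting error only. All counts of Ccl7, Cxcl2 and Cxcl10 above 0 were even, so a single fragment may give 2 counts. The floor may then be too low. Ccl7 had between 0 and 6 counts per library and 14, 10, 4 and 10 counts in all over the WT non-foamy and foamy and the Trem2-/- non-foamy and foamy libraries. Ccl12 had 3 counts, in 2 of the Trem2-/- foamy libraries. Cxcl2 had 4 counts in WT non-foamy replicate 2, 8 counts in Trem2-/- foamy replicate 3 and none elsewhere. Cxcl10 had 2 to 8 counts in each WT foamy library, 4 counts in WT non-foamy replicate 4, 6 counts in Trem2-/- non-foamy replicate 1 and none in the other libraries. These 4 genes were below the filter of the test, and no fold change is given for them.

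In non-foamy cells, the question is which ligands differed between the genotypes before any cholesterol was added. All 5 CC ligands that could be tested were lower in Trem2-/- cells, with fitted levels from 0.243 (Ccl2) to 0.703 (Ccl6) times those of WT cells, and Cxcl16 was not called. Among all tested genes, 22.6% were called lower and 21% higher in this comparison. The median log2 fold change of the 6 tested members was -1.18, beside 0.02 over all genes. Libraries of the groups did not overlap for the 5 CC ligands, which was also the case for 46.1% of all tested genes. With library totals alone in place of TMM scaling, the median over all genes became -0.13 and the share of calls that were higher went from 48.1% to 29.4%, while the 5 ligands were still called lower.

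**Figure D1:**
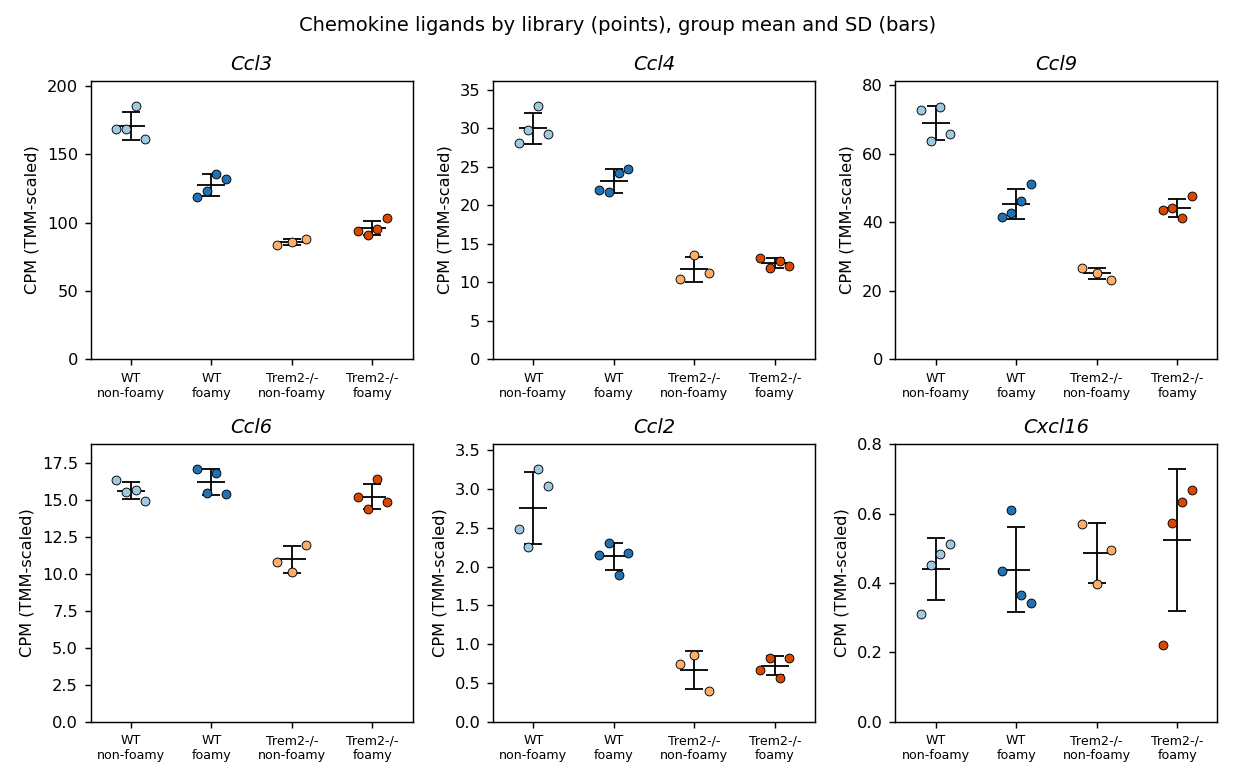
Level of the 6 tested chemokine ligands in CPM (linear axis from 0) in the 15 libraries by group; points are libraries, the long bar is the group mean and the whiskers are 1 SD. Ccl9 lies lower with cholesterol in WT cells (means of 68.9 and 45.4 CPM) and higher with cholesterol in Trem2-/- cells (23.2 to 26.7 and 41.3 to 47.7 CPM), while Ccl4 and Ccl2 lie lower in every Trem2-/- library than in every WT library.

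Ccl3 stood at 169, 168, 185 and 161 CPM in WT non-foamy replicates 1 to 4, and at 83.3, 85.5 and 88.1 CPM in Trem2-/- non-foamy replicates 1 to 3. The groups were far apart, and the fitted level in Trem2-/- cells was 0.502 times that of WT cells (SE 0.07 on the log2 scale, edgeR adjusted p = 1.4e-10).

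Its relative Ccl4 stood at 28.1, 29.8, 32.8 and 29.3 CPM in WT and at 10.4, 13.5 and 11.2 CPM in Trem2-/- non-foamy libraries. Again no library overlapped, and the log2 fold change of -1.36 (SE 0.10, adjusted p = 3.07e-10) was larger in size than that of Ccl3.

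Ccl9 showed the smallest adjusted p of the members. It stood at 72.6, 63.6, 73.6 and 65.8 CPM in WT and at 26.7, 25.1 and 23.2 CPM in Trem2-/- non-foamy libraries, a log2 fold change of -1.46 (SE 0.09, adjusted p = 8.98e-12). Its neighbour Ccl6 stood at 16.4, 15.6, 15.7 and 14.9 CPM in WT and at 10.8, 10.1 and 12.0 CPM in Trem2-/- libraries. With a log2 fold change of -0.51 (SE 0.09, adjusted p = 9.64e-05) this was the smallest of the members' called differences.

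The largest belonged to Ccl2, the leading monocyte chemoattractant. Ccl2 was rare, with 2.49, 2.25, 3.26 and 3.03 CPM in WT and 0.741, 0.866 and 0.397 CPM in Trem2-/- non-foamy libraries, the latter resting on 26, 24 and 12 counts. The log2 fold change was -2.04 (SE 0.27, adjusted p = 2.38e-06). Cxcl16 overlapped between the groups, with 0.311 to 0.513 CPM in WT and 0.397 to 0.570 CPM in Trem2-/- libraries. Its log2 fold change of 0.16 had a 95% interval from -0.75 to 1.07 (adjusted p = 0.800), so that differences of the size seen for Ccl6 in either direction were not detectable at this depth. All 5 calls held without any 1 library and under the other scalings, filters and tests.

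WT cells responded to cholesterol with lower levels of Ccl3, Ccl4 and Ccl9. Of all tested genes, 1.14% were called lower and 1.66% higher. Higher genes made up 59.4% of the calls, against 41.8% with library totals alone and 48.2% with DESeq2. The median log2 fold change was -0.37 over the 6 members and 0.01 over all genes. The same 3 members were those whose libraries did not overlap, as was the case for 9.71% of all tested genes.

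In WT foamy replicates 1 to 4, Ccl9 stood at 41.5, 42.5, 46.3 and 51.3 CPM, all below the lowest non-foamy library at 63.6 CPM. Its log2 fold change was -0.60 (SE 0.07, edgeR adjusted p = 5.22e-05), the largest in size of the members' called responses in WT cells. For Ccl3 the foamy libraries stood at 119, 123, 136 and 132 CPM, again below all non-foamy libraries, with a log2 fold change of -0.42 (SE 0.06, adjusted p = 0.000319). Ccl4 was at 21.9, 21.7, 24.2 and 24.7 CPM, a log2 fold change of -0.37 (SE 0.09, adjusted p = 0.0199). The call for Ccl4 was lost without WT foamy replicate 1 (adjusted p = 0.0606) or replicate 2 (adjusted p = 0.0897), whereas those for Ccl3 and Ccl9 held in every fit that left out 1 library.

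The remaining members were not called in WT cells. Ccl2 stood at 2.15, 2.30, 1.90 and 2.17 CPM in the foamy libraries, and its log2 fold change of -0.37 had a 95% interval from -0.82 to 0.09 (adjusted p = 0.430). Ccl6 stood at 17.1, 15.5, 16.8 and 15.4 CPM, mixed among the non-foamy libraries, with a log2 fold change of 0.05 and an interval from -0.12 to 0.22 (adjusted p = 0.813). For Cxcl16, at 0.343 to 0.611 CPM, the log2 fold change was 0.01, with an interval from -0.83 to 0.85 (adjusted p = 0.995).

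In Trem2-/- cells, Ccl9 and Ccl6 were higher with cholesterol and no member was lower. This comparison called few genes in all, with 0.105% of the tested genes higher and 0.0351% lower. The median log2 fold change was 0.13 over the 6 members and 0.00 over all genes. Libraries did not overlap for Ccl3, Ccl6 and Ccl9, and for 9.26% of all tested genes.

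Trem2-/- foamy libraries held 43.5, 44.0, 41.3 and 47.7 CPM of Ccl9, each of them above the highest Trem2-/- non-foamy library at 26.7 CPM. The log2 fold change was 0.82 (SE 0.08, edgeR adjusted p = 2.87e-05), and the call held in every fit that left out 1 library. Ccl6 stood at 15.2, 14.4, 16.4 and 14.9 CPM in foamy cells, above the non-foamy libraries without overlap, with a log2 fold change of 0.47 (SE 0.09, adjusted p = 0.0353). This call was less stable: it was lost in 5 of 7 fits that left out 1 library (adjusted p up to 0.354), all but those without Trem2-/- non-foamy replicate 3 or Trem2-/- foamy replicate 2, when library sizes were not scaled (adjusted p = 0.113) and when only the Trem2-/- libraries were fitted (adjusted p = 0.0945).

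Ccl3 stood at 94.0, 90.7, 95.4 and 103 CPM in Trem2-/- foamy cells, which was just above the non-foamy libraries. Its log2 fold change of 0.16 (SE 0.07) did not pass the adjustment (adjusted p = 0.704). Ccl4, at 13.1, 11.9, 12.8 and 12.1 CPM, overlapped with the non-foamy libraries (log2 fold change 0.10, 95% interval from -0.11 to 0.31). So did Ccl2, at 0.667, 0.827, 0.570 and 0.817 CPM (log2 fold change 0.10, interval from -0.51 to 0.72), and Cxcl16, at 0.222 to 0.668 CPM (log2 fold change 0.08, interval from -0.83 to 0.99).

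**Figure D2:**
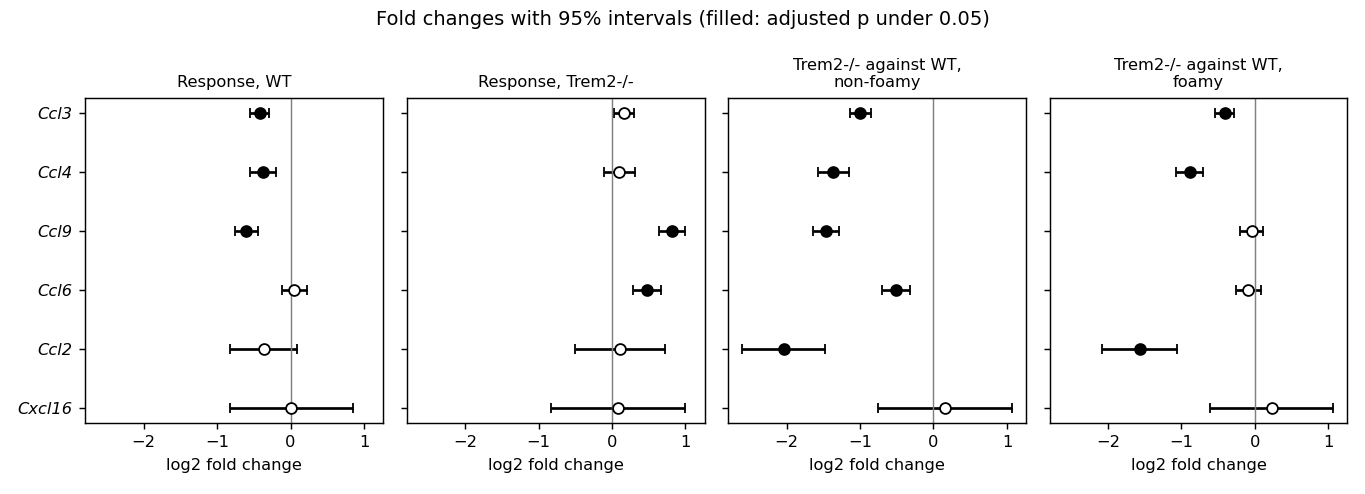
Log2 fold changes (horizontal axis) of the 6 tested chemokine ligands in 4 comparisons, with 95% intervals from the edgeR fit; filled points have an adjusted p under 0.05 over all tested genes. Ccl9 lies at -0.60 in the WT response and at 0.82 in the Trem2-/- response, and its difference between genotypes goes from -1.46 in non-foamy cells to -0.04 in foamy cells.

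Whether the genotypes responded differently was tested directly, as the Trem2-/- response minus the WT response. Ccl3, Ccl4 and Ccl9 were called, all with a higher value in Trem2-/- cells, where 1.99% of all tested genes were called higher and 1.64% lower. Higher genes made up 54.8% of these calls, against 70.3% with library totals alone. For Ccl9 the difference was 1.42 on the log2 scale (SE 0.11, edgeR adjusted p = 4.8e-08), as it fell in WT cells and rose in Trem2-/- cells. For Ccl3 it was 0.58 (SE 0.09, adjusted p = 0.000707), from a decrease in WT cells and no called change in Trem2-/- cells. The difference of 0.47 for Ccl4 (SE 0.13, adjusted p = 0.0477) was near the threshold and was lost in 12 of 15 fits that left out 1 library (adjusted p up to 0.160), all but those without WT foamy replicate 4, Trem2-/- non-foamy replicate 2 or Trem2-/- foamy replicate 4. It was also lost without the filter on low counts (adjusted p = 0.0511) and with a replicate block. Ccl6 had a difference of 0.42 (SE 0.12, adjusted p = 0.0593) and was not called by edgeR, while DESeq2 called it (adjusted p = 0.0155, against 0.0567 to 0.158 under the other scalings, filters and the replicate block). Ccl2 had a difference of 0.47 with a 95% interval from -0.29 to 1.24, and Cxcl16 of 0.07 with an interval from -1.17 to 1.31.

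With cholesterol, Ccl2, Ccl3 and Ccl4 were lower in Trem2-/- foamy than in WT foamy cells, and Ccl6, Ccl9 and Cxcl16 were not called. Without the filter on low counts edgeR also called Cxcl10 lower (adjusted p = 0.0425), on 4, 4, 2 and 8 counts in the WT foamy and none in the Trem2-/- foamy libraries. Of all tested genes, 15.9% were called lower and 14.3% higher. The median log2 fold change of the members was -0.25, against 0.00 over all genes, and libraries did not overlap for the 3 called members and for 28.8% of all tested genes. This comparison shares its libraries with the responses above.

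The log2 fold change in foamy cells was -1.57 for Ccl2 (SE 0.25, edgeR adjusted p = 4.07e-05), -0.89 for Ccl4 (SE 0.09, adjusted p = 1.2e-07) and -0.41 for Ccl3 (SE 0.06, adjusted p = 2.53e-05). These 3 calls held without any 1 library and under the other scalings, filters and tests. With library totals alone, the median over all genes was -0.13 and the share of higher calls went from 47.4% to 23.3%. Ccl9 averaged 45.4 ± 4.43 CPM in WT foamy and 44.1 ± 2.66 CPM in Trem2-/- foamy cells (SD, n = 4 each), with overlapping libraries. Its log2 fold change of -0.04 had an interval from -0.20 to 0.11 (adjusted p = 0.724). Ccl6 averaged 16.2 ± 0.886 and 15.2 ± 0.846 CPM (SD, n = 4 each), a log2 fold change of -0.09 with an interval from -0.26 to 0.08 (adjusted p = 0.445).

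The RNA of the 10 genes summed to 288, 280, 311 and 275 CPM in WT non-foamy replicates 1 to 4 and to 202, 206, 225 and 226 CPM in WT foamy libraries. The sums were 133, 136 and 135 CPM in Trem2-/- non-foamy and 167, 162, 167 and 179 CPM in Trem2-/- foamy libraries. The 4 groups were separate, in the order WT non-foamy, WT foamy, Trem2-/- foamy and Trem2-/- non-foamy. This order belongs to the 10 genes and not to all chemokine ligands. Pf4, a further ligand described below, is not in the sums. It stood at 111 to 142 CPM in WT foamy and at 178 to 196 CPM in Trem2-/- foamy libraries. Ccl3 contributed most, with a mean share of 59.1%, 59.3%, 63.6% and 56.6% of the sum in WT non-foamy, WT foamy, non-foamy Trem2-/- and foamy Trem2-/- cells. Ccl9 made up 23.9% and 21.1% in the WT groups, 18.6% in Trem2-/- non-foamy and 26.1% in Trem2-/- foamy cells. The share of Ccl4 was 10.4% in WT non-foamy and 7.39% in Trem2-/- foamy cells, and that of Ccl6 was 5.42% and 9.02%. These are shares of CPM, which is not corrected for gene length (3045 exonic bases for Ccl9 and 660 for Ccl4), and per kilobase Ccl4 was above Ccl9 in every group.

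**Figure D3:**
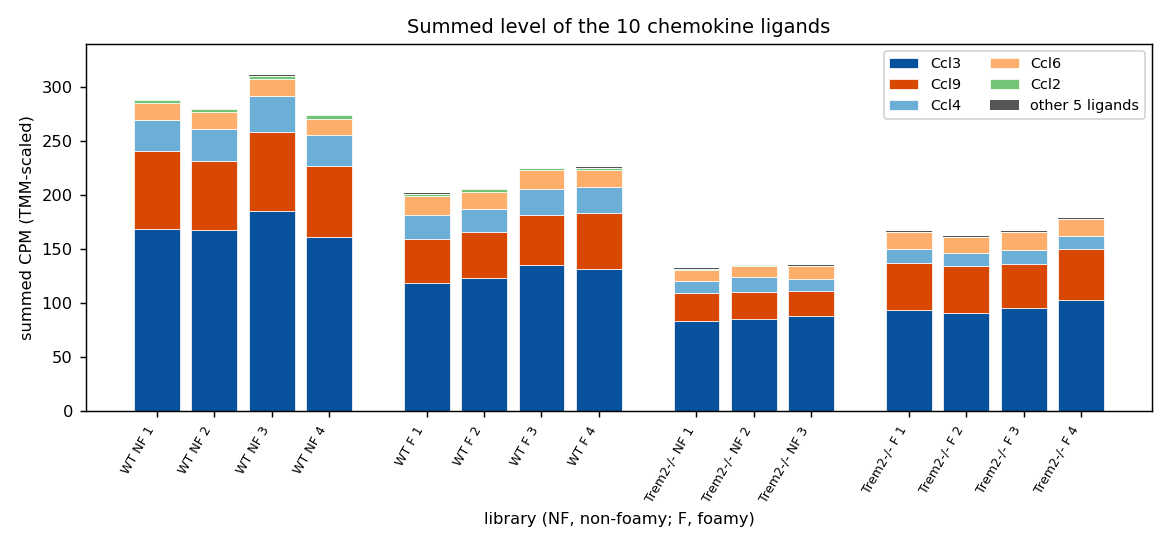
Summed CPM of the 10 chemokine ligands in each of the 15 libraries (bars from 0), split by gene; NF stands for non-foamy and F for foamy cells. The sums lie between 275 and 311 CPM in WT non-foamy, 202 and 226 in WT foamy, 133 and 136 in Trem2-/- non-foamy and 162 and 179 in Trem2-/- foamy libraries, and Ccl3 and Ccl9 make up most of each bar.

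The spread between libraries differed among the members. Coefficients of variation within a group ran from 2.79% to 6.17% for Ccl3, from 3.77% to 8.49% for Ccl6 and from 6.03% to 9.75% for Ccl9, and reached 36.3% for Ccl2 and 39.1% for Cxcl16, the rarest tested members. Deviations from the group means over the 15 libraries had a correlation of 0.56 between Ccl3 and Ccl9, 0.47 between Ccl3 and Ccl4, -0.34 between Ccl6 and Ccl9 and -0.79 between Ccl2 and Ccl6. These values are descriptive, since all genes of a library share its depth and scaling.

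Promoters were compared for the 6 members found in the RefSeq promoter table of GRCm38.p6, namely Ccl3, Ccl6, Ccl9, Ccl12, Cxcl2 and Cxcl10. The stretches of 220 bases before the annotated start are shown for Ccl9 and Ccl6, neighbouring genes that were both called higher with cholesterol in Trem2-/- cells, for Ccl3, the most abundant member, and for Cxcl10, an interferon-induced ligand at the limit of detection. Each reads 5′ to 3′ on the gene's strand, and capitals mark whole matches to the motifs searched.
Ccl9: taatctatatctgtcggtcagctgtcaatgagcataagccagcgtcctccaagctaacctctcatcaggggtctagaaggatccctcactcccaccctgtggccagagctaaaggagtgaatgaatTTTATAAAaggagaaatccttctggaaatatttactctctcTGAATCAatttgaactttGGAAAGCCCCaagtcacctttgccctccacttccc
Ccl6: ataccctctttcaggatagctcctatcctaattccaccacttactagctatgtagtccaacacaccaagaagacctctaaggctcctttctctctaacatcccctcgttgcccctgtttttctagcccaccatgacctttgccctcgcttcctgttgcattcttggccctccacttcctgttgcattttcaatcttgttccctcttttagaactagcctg
Ccl3: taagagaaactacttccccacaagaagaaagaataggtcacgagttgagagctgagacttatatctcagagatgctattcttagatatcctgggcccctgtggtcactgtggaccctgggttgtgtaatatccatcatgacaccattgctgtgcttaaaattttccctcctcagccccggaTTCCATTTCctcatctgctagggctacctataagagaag
Cxcl10: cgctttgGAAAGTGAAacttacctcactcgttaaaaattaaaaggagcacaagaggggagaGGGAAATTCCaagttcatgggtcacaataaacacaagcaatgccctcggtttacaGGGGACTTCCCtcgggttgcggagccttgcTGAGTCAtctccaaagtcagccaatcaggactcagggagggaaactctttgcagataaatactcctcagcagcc

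These stretches lie on the minus strand at chr11:83578637-83578856 (Ccl9), chr11:83593088-83593307 (Ccl6), chr11:83649379-83649598 (Ccl3) and chr5:92348890-92349109 (Cxcl10). The motifs, searched on both strands over the whole table entry from 250 bases before to 50 bases after the start, were the degenerate NF-kB motif, the ISRE core GAAANNGAA, the AP-1 motif TGANTCA and TATAAA. An NF-kB match was found for Ccl9 at -35 to -26, for Cxcl10 at -159 to -150 and at the overlapping positions -104 to -95 and -103 to -94, and for Cxcl2. In Ccl9, TATAAA matches lay at -224 to -219 and, overlapping on opposite strands, at -94 to -89 and -92 to -87, and an AP-1 match lay at -53 to -47. Cxcl10 also had an ISRE core at -213 to -205 and an AP-1 match at -74 to -68. Ccl3 had an ISRE core at -39 to -31, and Ccl6 had none of these motifs. Over all 32851 promoters of the table, 8.46% held the NF-kB motif, 8.56% the ISRE core, 7.81% the AP-1 motif and 13.6% TATAAA, against 3, 2, 2 and 2 of the 6 members. The Ccl6 and Ccl9 sequences before the start were identical at 146 of 292 aligned positions, and identity over all pairs of the 6 members ranged from 44.9% to 53.8%. A match describes letters in the window and not a bound site.

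None of the other chemokine ligands listed here that could be tested was called lower in Trem2-/- cells. Of 27 further ligand genes, 6 were tested, and none of them was called in either response or in the difference between responses. Without cholesterol, 2 were called higher in Trem2-/- cells, and with cholesterol 4, where 21% and 14.3% of all tested genes were called higher. Pf4, the platelet factor CXCL4 that macrophages also express, stood at 115, 113, 152 and 119 CPM in WT and 173, 161 and 166 CPM in Trem2-/- non-foamy libraries. It was higher by 0.42 (SE 0.09, edgeR adjusted p = 0.000523) without and by 0.57 (SE 0.08, adjusted p = 1.76e-05) with cholesterol on the log2 scale. Ccl24, the eosinophil attractant eotaxin-2, was higher by 1.34 (SE 0.24, adjusted p = 8.53e-05) and 1.44 (SE 0.23, adjusted p = 5.53e-05). In foamy cells Ccl25, a thymus-expressed ligand, was higher by 0.41 (SE 0.12, adjusted p = 0.0114), a call lost when library sizes were not scaled. Ccl5, also known as RANTES, was higher by 0.86 (SE 0.31, adjusted p = 0.0408), a call lost when any 1 WT foamy library was left out, and without Trem2-/- foamy replicate 3, which held 4.43 CPM against 1.17 to 2.04 CPM in the other 3 libraries. It was lost as well with library totals alone, with only the groups compared and with a replicate block.

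Of 24 receptor genes, 8 were tested. In Trem2-/- non-foamy cells 4 were higher than in WT cells and 1 was lower, and in foamy cells 3 were higher and 1 was lower. Among all tested genes, 21% were higher and 22.6% lower without cholesterol, and 14.3% and 15.9% with it. Cxcr4, the receptor of Cxcl12, stood at 35.0, 35.7, 35.6 and 33.5 CPM in WT non-foamy and at 76.6, 72.0 and 78.4 CPM in Trem2-/- non-foamy libraries, a log2 fold change of 1.12 (SE 0.07, edgeR adjusted p = 9.36e-12). With cholesterol it was 41.2, 48.9, 47.7 and 45.2 CPM in WT and 65.2, 69.8, 66.6 and 65.9 CPM in Trem2-/- libraries. Thus Cxcr4 rose in WT cells, by 0.39 (SE 0.06, adjusted p = 0.000737) on the log2 scale, and its response in Trem2-/- cells differed from this by -0.57 (SE 0.09, adjusted p = 0.000707).

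Cxcr2, the receptor of Cxcl2, was higher in Trem2-/- cells by 1.22 (SE 0.13, edgeR adjusted p = 1.21e-07) without and by 0.43 (SE 0.12, adjusted p = 0.00953) with cholesterol. It rose by 0.67 in WT cells (SE 0.13, adjusted p = 0.00409), and the responses differed by -0.79 (SE 0.18, adjusted p = 0.0170), a call lost without Trem2-/- non-foamy replicate 1 (adjusted p = 0.0716). Ccrl2, an atypical receptor that presents chemerin, was higher by 1.23 (SE 0.20, adjusted p = 2.16e-05) and 0.79 (SE 0.18, adjusted p = 0.00172). Cxcr1 was called higher without cholesterol only, by 1.34 (SE 0.32, adjusted p = 0.00157), and its difference between responses was not called (adjusted p = 0.393). Cx3cr1, the fractalkine receptor of microglia, was lower, with log2 fold changes of -2.35 (SE 0.42, adjusted p = 7.61e-05) without and -0.98 (SE 0.35, adjusted p = 0.0401) with cholesterol. The latter call was lost without WT foamy replicate 1, 2 or 4 or Trem2-/- foamy replicate 2 or 4, with only the groups compared and with a replicate block. Receptors of the measured CC ligands were rare: Ccr1 had at most 68 counts in any library and was not called, and Ccr2, with a mean of at most 0.340 CPM in any group, was not tested.

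**Figure D4:**
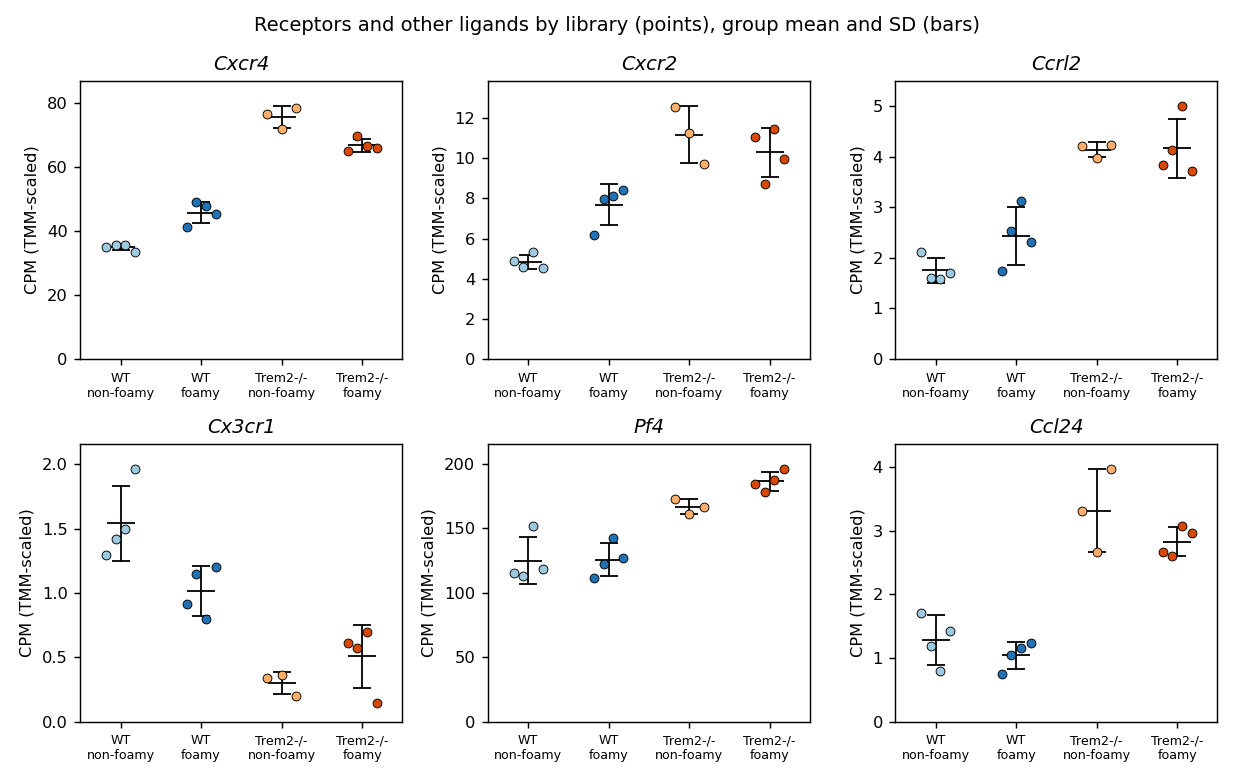
Level in CPM (linear axis from 0) of 4 chemokine receptors and 2 further ligands in the 15 libraries; points are libraries, the long bar is the group mean and the whiskers are 1 SD. Cxcr4 lies between 33.5 and 35.7 CPM in WT non-foamy and between 72.0 and 78.4 CPM in Trem2-/- non-foamy libraries, and Cx3cr1 lies lower in all Trem2-/- libraries than in all WT libraries.

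Genes downstream of chemokine receptors moved in both directions between genotypes. All 18 genes of the receptor signalling list were tested, and without cholesterol 7 were higher and 6 lower in Trem2-/- cells, where 21% and 22.6% of all tested genes were so called. Those lower included Rgs1, a brake on receptor signalling (log2 fold change -0.95, SE 0.10, edgeR adjusted p = 1.17e-07), and Elmo1, a partner of Dock2 in Rac activation (-0.81, SE 0.08, adjusted p = 1.7e-08). Higher were Rgs10 (0.67, SE 0.08, adjusted p = 8.99e-07) and Plcb2, a phospholipase (0.57, SE 0.07, adjusted p = 6.72e-07). With cholesterol 2 were higher and 5 lower, beside 14.3% and 15.9% of all tested genes. In the responses only Plcb2 was called, higher in WT cells by 0.33 (SE 0.07, adjusted p = 0.00642), and the responses differed by -0.40 (SE 0.10, adjusted p = 0.0228), which was lost without WT foamy replicate 2, Trem2-/- non-foamy replicate 1 or 3 or Trem2-/- foamy replicate 1. The difference was also lost with library totals alone (adjusted p = 0.106) and with a replicate block. With library totals alone, Arrb1, Dock2, Pik3r5 and Prex1 without cholesterol and Rac2 with cholesterol lost their calls as higher. When 1 library was left out, calls were also lost for Prex1 in 4, Dock2 in 3 and Arrb1, Gnb1 and Rgs2 in 1 of 7 fits without cholesterol, and for Rac2 in 2 of 8 fits with cholesterol. That of Prex1 was lost with a replicate block too. The medians of this list were 0.04 without and -0.03 with cholesterol.

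Regulators of chemokine transcription were examined as well. The NF-kB proteins switch on many chemokine genes, and of 17 genes of that pathway 5 were higher and 3 lower in Trem2-/- non-foamy cells, a share near the 21% higher and 22.6% lower of all tested genes. In foamy cells 4 were lower and none higher, beside 15.9% and 14.3% of all tested genes. The inhibitor genes Nfkbia and Nfkbie were lower in both comparisons. Nfkbia had log2 fold changes of -0.63 (SE 0.10, edgeR adjusted p = 2.74e-05) and -0.72 (SE 0.09, adjusted p = 4.61e-06), and Nfkbie of -1.24 (SE 0.29, adjusted p = 0.00139) and -1.03 (SE 0.26, adjusted p = 0.00447). Rel, Rela, Nfkb2, Tnfaip3 and Tnip1 were higher without cholesterol. The calls for Rel, Rela, Nfkb2 and Tnip1 were lost when library sizes were not scaled, and that for Rela also without WT non-foamy replicate 1 or 3 or Trem2-/- non-foamy replicate 1 or 3. Without Trem2-/- non-foamy replicate 3 the calls for Nfkb2 (adjusted p = 0.176) and Tnip1 (adjusted p = 0.0709) were lost too. Of the genes called lower, Nfkbib lost its call without WT non-foamy replicate 3 or Trem2-/- non-foamy replicate 1 or 2, and Nfkb1 in foamy cells without WT foamy replicate 1 or 2 or Trem2-/- foamy replicate 4. No gene of the list was called in either response. In the difference between responses Tnfaip3 was called, at -0.53 (SE 0.14, adjusted p = 0.0416), and this was lost in 10 of 15 fits that left out 1 library, all but those without WT non-foamy replicate 3, WT foamy replicate 3 or 4 or Trem2-/- foamy replicate 1 or 3. It was lost with library totals alone and with a replicate block as well.

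Of 21 genes of the interferon axis, which induces Cxcl10 among others, 19 were tested. In Trem2-/- cells 9 were higher and 1 lower without cholesterol, and 6 were higher and 1 lower with cholesterol, beside 21% and 22.6% and then 14.3% and 15.9% of all tested genes. Rsad2, an antiviral interferon-stimulated gene, was higher by 1.40 (SE 0.16, edgeR adjusted p = 2.21e-07) and 0.73 (SE 0.15, adjusted p = 0.000571), and the transcription factor gene Irf1 by 0.64 (SE 0.10, adjusted p = 1.49e-05) and 0.51 (SE 0.09, adjusted p = 0.000167). Irf3 was the gene that was lower without cholesterol (-0.31, SE 0.09, adjusted p = 0.00476). None was called in a response. With library totals alone, Ifnar1 and Ifngr1 without cholesterol and Ifnar2, Irf8 and Irf9 with cholesterol lost their calls as higher. Ifngr1 lost its call also without Trem2-/- non-foamy replicate 1, and Irf9 with cholesterol without WT foamy replicate 4 or Trem2-/- foamy replicate 3. The list's median was 0.37 without and 0.11 with cholesterol, while Cxcl10 itself stayed at or below 8 counts in every library.

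Genes of proteins that release, bind or degrade chemokines were also examined, with 9 of 13 genes tested. In both comparisons of the genotypes 2 were higher and 2 were lower in Trem2-/- cells, beside 21% and 22.6% of all tested genes without and 14.3% and 15.9% with cholesterol. Mmp12, the macrophage elastase, which cleaves chemokines, was lower, with log2 fold changes of -1.76 (SE 0.12, edgeR adjusted p = 6.58e-11) without and -1.88 (SE 0.11, adjusted p = 1.48e-11) with cholesterol. Sdc1, whose heparan sulphate chains bind chemokines, was lower as well, with -1.12 (SE 0.13, adjusted p = 1.89e-07) and -0.65 (SE 0.11, adjusted p = 0.000137). Timp2, a metalloprotease inhibitor, was higher by 1.34 (SE 0.07, adjusted p = 2.98e-12) and 0.83 (SE 0.07, adjusted p = 5.71e-09), and the sheddase Adam17 by 0.38 (SE 0.06, adjusted p = 1.6e-05) and 0.28 (SE 0.06, adjusted p = 0.000506). Timp2 alone of this list was called in a response, with a rise of 0.37 in WT cells (SE 0.07, adjusted p = 0.00411), and the responses of the genotypes differed by -0.51 (SE 0.10, adjusted p = 0.00540). Adam10, the sheddase of Cxcl16, was not called in any comparison.

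Genes next to the members on the chromosome were listed as well. Wfdc17, which follows Ccl4 at 39308 bases, was not called in any comparison. Mthfd2l beside Cxcl2 was higher in Trem2-/- foamy cells by 0.58 (SE 0.12, edgeR adjusted p = 0.000921), Nup54 beside Cxcl10 was lower with log2 fold changes of -0.33 (SE 0.07, adjusted p = 0.000299) without and -0.22 (SE 0.06, adjusted p = 0.00794) with cholesterol, and Med11 beside Cxcl16 was lower with -0.33 (SE 0.08, adjusted p = 0.00217) without cholesterol. Gm17268, which spans Ccl2 on the other strand, had no count in any library.

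Finally, the genes most like each member were looked up over the 4 group means, among 8360 tested genes averaging 10 CPM or more, as the smallest root mean square distance between centred log2(CPM + 0.5) values. For Ccl9 it was Msmo1, an enzyme of sterol synthesis, at a distance of 0.110, with means of 170, 95.9, 55.5 and 88.3 CPM in WT non-foamy, WT foamy, non-foamy Trem2-/- and foamy Trem2-/- cells, followed by Gm3571 at 0.139. For Ccl4 it was Tnip3, an inhibitor of NF-kB, at 0.0165, with 21.1, 15.8, 8.13 and 8.55 CPM in the same order, and Bop1. The genes closest to Ccl3 were Ctu2 at 0.0215 and Tubb6 at 0.0263, and Mthfd2 was close to Ccl2, at 0.0561. Mettl26 at 0.0397 and Dtd1 were closest to Ccl6. Cxcl16 was closest to Zfyve21 and Grpel2, which says little, since its level is near the 0.5 CPM added before the logarithm. Ccl2 was also near 0.5 CPM in Trem2-/- cells, with means of 0.668 CPM when non-foamy and 0.720 CPM when foamy. Its distances to other genes are therefore affected by the added 0.5 CPM. These distances describe 4 values per gene and carry no test.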

How the data were processed

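Bulk RNA-seq of 15 BV2 libraries was used. The authors deposited raw counts per gene for each library, without normalization. Their methods name Trimmomatic, HISAT2 with GRCm38, and featureCounts within the CHURP pipeline. Whether strand was used in counting, and how reads with several matches were treated, are not given in the sources used here.

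Groups follow the labels. filterByExpr (minimum count 10) kept 14237 of 54390 genes, with 99.97% of the counts. After TMM scaling (factors 0.918 to 1.11), all libraries entered a single fit with a mean for each group, tested by glmQLFTest (edgeR 4.0.16, R 4.3.3). The common biological coefficient of variation came to 10.2%. Adjusted p-values are Benjamini-Hochberg values over all tested genes, and 95% intervals use the degrees of freedom of the fit. Totals of 23538963 to 41683825 counts set the precision. Of values between 1 and 100, 72.2% were even, so that 2 counts may stand for 1 fragment and low values are less precise than their counts imply.

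The members and lists were chosen with earlier results of these data known. Named genes are the members, Trem2, genes of the lists (other ligands, receptors, receptor signalling, NF-kB, interferon axis, shedding and degradation, cell type markers), chromosomal neighbours, and the 2 genes nearest to each member in group means. Sequences, positions and exonic lengths come from GENCODE M21 and RefSeq, with a length for 99.9% of tested genes. The fit was tested on simulated data. Alternatives were DESeq2 1.42.0, RLE factors, library totals, no filter, 10 counts in each library, the compared groups only, a replicate block, a call rule of a log2 fold change of 1 or more in size, and leaving out each library. A few genes and sequences that these rules name are not reported here.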

Additional observations from a re-analysis of the deposited data

Results flagged for a closer look

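The response to cholesterol differed between the genotypes for 3 chemokine ligands, by the test of the difference itself in edgeR. Of all tested genes, 1.99% were called higher and 1.64% lower in this test. The difference of the Trem2-/- response from the WT response was 1.42 on the log2 scale for Ccl9, 0.58 for Ccl3 and 0.47 for Ccl4. That of Ccl4 (adjusted p = 0.0477) was lost in 12 of 15 fits that left out 1 library, without the filter on low counts and with a replicate block, while those of Ccl9 and Ccl3 held in all of these. Ccl9 was lower in 4 of 4 WT foamy libraries than in all WT non-foamy libraries and higher in 4 of 4 Trem2-/- foamy libraries than in all Trem2-/- non-foamy libraries. Libraries did not overlap for 9.71% of all tested genes in the WT response and for 9.26% in the Trem2-/- response.

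Single libraries stood apart for members at the limit of detection. Cxcl2 was at 0.129 CPM in WT non-foamy replicate 2 and at 0.253 CPM in Trem2-/- foamy replicate 3, and at 0 in the other libraries of these groups. Cxcl10 was at 0.0892 CPM in WT non-foamy replicate 4 and at 0 in the other 3. These are 3 of 26 groups of 4 libraries examined by the gap of 1 library to the rest, relative to the group's range. About 1 in 20 groups is marked in this way by chance, and a group of 4 with counts in 1 library alone is always marked. The Trem2-/- non-foamy group, with 3 libraries, was not examined.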

How the results depend on the processing

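Directions of the called chemokine ligands did not change under any alternative. The calls of Ccl2 held under all of them, and those of Ccl9 and Ccl3 under all but the rule on the size of the fold change, by which Ccl9 kept its calls between genotypes without cholesterol and in the difference between responses. Comparing each tested ligand's value with its alternatives, 445 kept direction and side of the threshold, 34 lost the call, 1 gained it and 15 changed sign. For called genes of the other lists these were 1432 kept and 173 lost, and for Trem2 81 kept, 2 lost and 1 changed sign. Without the filter, Cxcl10 was also called lower in Trem2-/- foamy cells. The causes were not tested.

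All genes called in the WT response numbered 399, against 881 with DESeq2, 607 without a filter on low counts, 144 with only the WT libraries, and 146 (without WT foamy replicate 2) to 526 (without WT foamy replicate 4) when 1 library was left out. In the Trem2-/- response there were 20, against 56 with DESeq2, 61 without a filter, and 10 to 18 with 1 library left out. For the difference between responses there were 518, against 985 with DESeq2 and from 201 when Trem2-/- non-foamy replicate 1 was left out to 661 when WT foamy replicate 4 was. Under the rule of a log2 fold change of 1 or more in size, 15, 1, 880, 409 and 45 genes were called in the WT response, the Trem2-/- response, the comparison of genotypes without and with cholesterol, and the difference, and 0, 0, 3, 1 and 1 of them were chemokine ligands.

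The 2 ligands called in the Trem2-/- response became 1 with library totals alone, 1 with only the Trem2-/- libraries, and 1 to 2 with 1 library left out. The sign changes concerned values not called. With 1 library left out, the log2 fold change of Cxcl16 ran from -0.19 to 0.11 in the WT response, from -0.054 to 0.35 in the Trem2-/- response and from -0.066 to 0.33 in the difference, that of Ccl2 in the Trem2-/- response from -0.16 to 0.31, that of Ccl9 between genotypes with cholesterol from -0.083 to 0.022, and that of Trem2 in the Trem2-/- response from -0.011 to 0.046.

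Replicate numbers recur in the groups, but 21 pairs with the same number had correlations of -0.10 to 0.14 between their deviations, and 4 of 15 libraries correlated best with their own number. The labels do not say what a shared number means, and these values cannot exclude a common culture or run. The main fit did not treat the numbers as pairs. With a replicate block the difference called 294 genes, Ccl4 lost its call there (adjusted p = 0.0787), and Cxcl16 was at -0.018 in the Trem2-/- response and -0.046 in the difference. Depth limits Ccl7, Ccl12, Cxcl2 and Cxcl10, which had 8 counts or fewer in every library.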
